A study of Mus musculus with 60 samples.

Results

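The 60 brain RNA-seq libraries of this mouse study were divided into 30 cortex-like and 30 striatum-like libraries. They were divided by the level of a single transcript rather than by the deposited tissue label. The groups were chosen on Slc17a7, which encodes the vesicular glutamate transporter VGLUT1. A library above 100 FPKM as deposited was taken as cortex-like and a library at or below 100 FPKM as striatum-like. FPKM counts fragments per kilobase of transcript, scaled to the mapped fragments of the library. The other levels given here are FPKM divided by a median-of-ratios factor for each library (rescaled FPKM).

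All mice were labelled C57BL-6N and 3 months of age. They carried either of 2 edited Huntingtin (Htt) alleles or neither: in the Δ12 line, +/+, Δ12/+ and Δ12/Δ12, and in the KO line, +/+ and KO/+. The Δ12 allele, made by genome editing in embryonic stem cells, lacks part of exon 12, and the KO allele came from an imprecise deletion that also took the splice donor, so each line rests on its own editing event. Each of the 10 combinations of labelled tissue and genotype held 6 libraries, 3 from males. The cortex-like libraries were those labelled Δ12-line +/+ (n = 12) and Δ12/+ (n = 12) and the male Δ12/Δ12 libraries (n = 6). The striatum-like libraries were those labelled KO-line +/+ (n = 12) and KO/+ (n = 12) and the female Δ12/Δ12 libraries (n = 6). Each group held 15 libraries labelled cortex and 15 labelled striatum, so the division crossed the labelled tissue and followed the labelled line except among the Δ12/Δ12 libraries, where it followed the labelled sex. One library entered its genotype by the genotype label, since its title names the other line.

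The neocortex is built mainly of glutamatergic projection neurons, which load glutamate into vesicles with VGLUT1 and owe their identity to transcription factors such as Emx1, Neurod2 and Neurod6. The striatum is built mainly of GABAergic spiny projection neurons. Direct-pathway neurons carry the D1 dopamine receptor and indirect-pathway neurons the D2 dopamine receptor (Drd2) and an adenosine receptor (Adora2a), and both signal through cyclic AMP and DARPP-32 (Ppp1r1b). In whole tissue, fewer cells of a type and less RNA per cell cannot be told apart.

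As deposited, Slc17a7 ran from 121 to 234 FPKM in the cortex-like libraries (median 187) and from 4.81 to 64.8 in the striatum-like libraries (median 12.4). The library just inside the threshold was striatum Δ12-line Δ12/+ male 3, at 121, and those just outside were cortex KO-line KO/+ male 3, at 64.8, and cortex KO-line KO/+ female 1, at 53.9. These values define the groups and support nothing further.

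Other measures moved with the division. A rough depth, taken from the upper limits printed with the FPKM as if they lay 2 counting SDs above the value, was, in units of 1e6 fragments, 12.7 to 19.4 in the cortex-like libraries (median 14.4) and 16.4 to 27.5 in the striatum-like libraries (median 18.2). Entries above 0 numbered 14925 to 21783 and 21033 to 22079. Short RNAs took 83.9% to 99.5% of all FPKM in the cortex-like (median 96.7%) and 59.0% to 96.8% in the striatum-like libraries (median 89.2%). The labelled sex was not followed by the sex-linked transcripts: of the cortex-like libraries, 10 of 18 labelled male had more Xist than Ddx3y and 7 of 12 labelled female had more Ddx3y than Xist, and in the striatum-like libraries these were 5 of 12 and 8 of 18. The part of depth, short RNA and labels in the differences below was not tested.

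**Figure D1:**
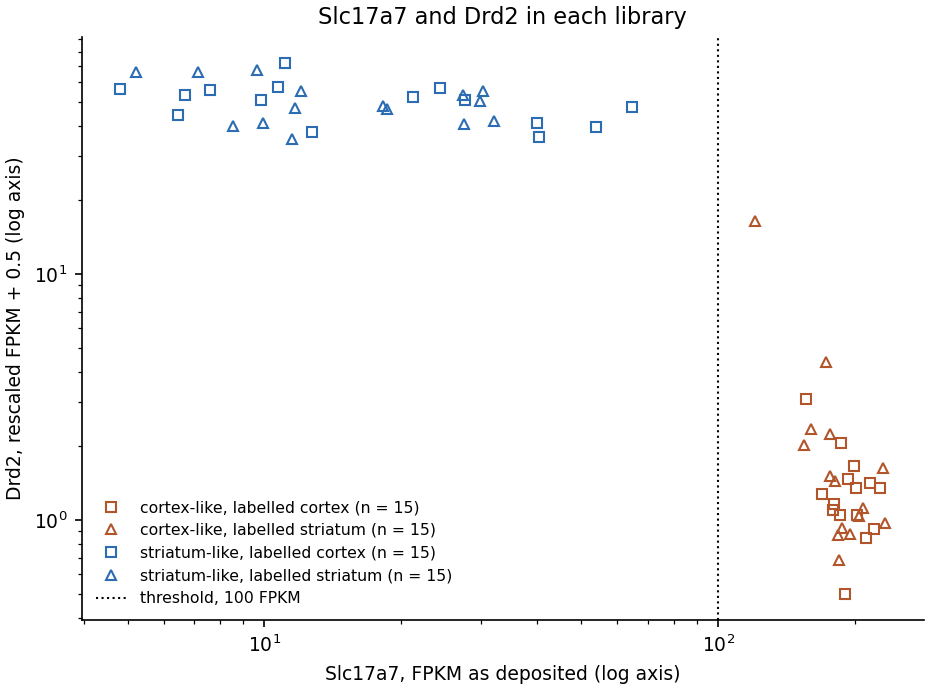
Slc17a7 (FPKM as deposited, log axis) against Drd2 (rescaled FPKM + 0.5, log axis) in each of the 60 libraries; squares are libraries labelled cortex, triangles libraries labelled striatum, and the dotted line is the 100 FPKM threshold. Both symbols occur on either side, and the cortex-like library nearest the threshold, at 121 FPKM of Slc17a7, has the highest Drd2 of its group.

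Promoters are shown for 3 of the marker genes that distinguish the cell types, since these genes give the groups their names. The sequences are RefSeq promoters on GRCm38.p6, 300 bases each around the annotated start, written 5′ to 3′ on the strand of the gene. Capitals mark matches on either strand to the E-box CAGATG, the retinoid receptor half-site AGGTCA and the cAMP response element half-site TGACG, which overlap nowhere here. The RefSeq start of Drd2 lies upstream of the start in the files' annotation.
Neurod2 (chr11:98329596-98329895, minus strand): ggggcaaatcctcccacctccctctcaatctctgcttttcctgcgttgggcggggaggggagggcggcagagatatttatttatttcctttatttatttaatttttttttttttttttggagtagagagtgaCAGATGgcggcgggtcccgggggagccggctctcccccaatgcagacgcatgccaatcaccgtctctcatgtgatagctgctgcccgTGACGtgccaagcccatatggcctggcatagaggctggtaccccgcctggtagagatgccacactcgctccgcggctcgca
Neurod6 (chr6:55681214-55681513, minus strand): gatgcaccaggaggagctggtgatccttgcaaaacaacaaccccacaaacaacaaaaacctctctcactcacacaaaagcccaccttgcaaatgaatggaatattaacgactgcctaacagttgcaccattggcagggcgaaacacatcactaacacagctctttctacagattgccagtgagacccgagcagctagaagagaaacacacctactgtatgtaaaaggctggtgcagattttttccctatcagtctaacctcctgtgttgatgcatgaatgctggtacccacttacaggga
Drd2 (chr9:49340153-49340452, plus strand): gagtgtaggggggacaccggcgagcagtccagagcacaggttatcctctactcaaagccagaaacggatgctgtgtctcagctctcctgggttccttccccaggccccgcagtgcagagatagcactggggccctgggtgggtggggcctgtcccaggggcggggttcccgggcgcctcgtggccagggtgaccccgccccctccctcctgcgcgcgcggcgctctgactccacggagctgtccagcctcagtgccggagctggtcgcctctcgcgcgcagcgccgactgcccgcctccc
The Neurod2 window held 1 E-box and 1 cAMP response element half-site, and the other windows held none of the 3 motifs. Of all 32851 promoters of this length, 17.2% held the E-box, 16.3% the retinoid half-site and 20.8% the cAMP half-site. A match is a run of letters and not a measured site.

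Because the groups were cut on a measured gene, the comparison between them is given as a description, with no test. A gene was counted as separated where its mean log2(rescaled FPKM + 0.5) differed by at least 1, a 2-fold difference on that scale, and no library of 1 group lay within the range of the other. The added 0.5 understates the difference of low genes. Of 16075 genes with a mean of at least 0.5, without Slc17a7, 2255 were separated and higher in the cortex-like libraries (14.0%) and 2385 separated and higher in the striatum-like libraries (14.8%). These 2 percentages are the background for each list below. A further 1797 genes differed by at least 2-fold with overlapping ranges, and 9638 (60.0%) differed by less than 2-fold. Separation of at least 16-fold (4 on the log2 scale) held for 66 genes higher in the cortex-like and 14 higher in the striatum-like libraries. The split of directions depended on the scaling: with FPKM as deposited, 3066 were higher in the cortex-like and 1347 in the striatum-like libraries, and the median difference of all genes moved from -0.06 to 0.26 on the log2 scale.

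The division was the leading one in the data. The first principal component held 50.7% of the variance and placed the cortex-like libraries from 26.0 to 140 and the striatum-like libraries from -106 to -74.5. Its largest gene weights toward the cortex-like side were on short RNAs and unnamed entries, among them Snora57 (0.0667), mt-Tm (0.0607) and Snora68 (0.0597). Toward the other side, Ttr had -0.0316 and Drd2 -0.0279. The part of short RNAs in this component was not tested. Every one of the 60 libraries had its closest library, by the correlation of log2 levels over genes, in its own group. Within the libraries labelled cortex, 4998 genes were separated, within those labelled striatum 5425, and 4608 in both, all of them in the same direction, counted over the 16075 genes above. The 4640 genes separated over all 60 libraries could not overlap within either label, so these counts add no support. Among the Δ12/Δ12 libraries alone, 6 cortex-like labelled male and 6 striatum-like labelled female, 5842 genes were separated. The genes separated over all 60 libraries could not overlap there either, so this count adds no support.

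The 4 marker genes that the rule did not name differed in how cleanly they divided. Drd2 (GRCm38.p4, chr9:49340662-49407214, whole gene) was 0 to 15.9 in the cortex-like libraries (median 0.809) and 34.8 to 71.3 in the striatum-like libraries (median 50.2), a mean log2 difference of -5.12 (SE 0.177, n = 30 and 30). Adora2a (chr10:75316943-75334788) was 1.71 to 22.1 (median 3.41) against 47.8 to 98.9 (median 68.5), a difference of -4.03 (SE 0.136). Neither gene had a library of 1 group within the range of the other, and the highest cortex-like value of both came from the same library, striatum Δ12-line Δ12/+ male 3. Neurod2 (chr11:98325415-98329648) was 2.84 to 7.91 (median 5.28) in the cortex-like and 0.0797 to 3.41 (median 0.488) in the striatum-like libraries, and Neurod6 (chr6:55677822-55681263) was 1.96 to 11.3 (median 3.94) against 0.0277 to 2.83 (median 0.643). The mean log2 differences were 2.27 (SE 0.153) for Neurod2 and 1.97 (SE 0.165) for Neurod6, but the ranges overlapped, so neither was counted as separated. Both encode basic helix-loop-helix factors of maturing excitatory neurons. The 2 highest striatum-like values of Neurod2, 3.41 and 3.37, were in the KO/+ libraries just outside the threshold.

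**Figure D2:**
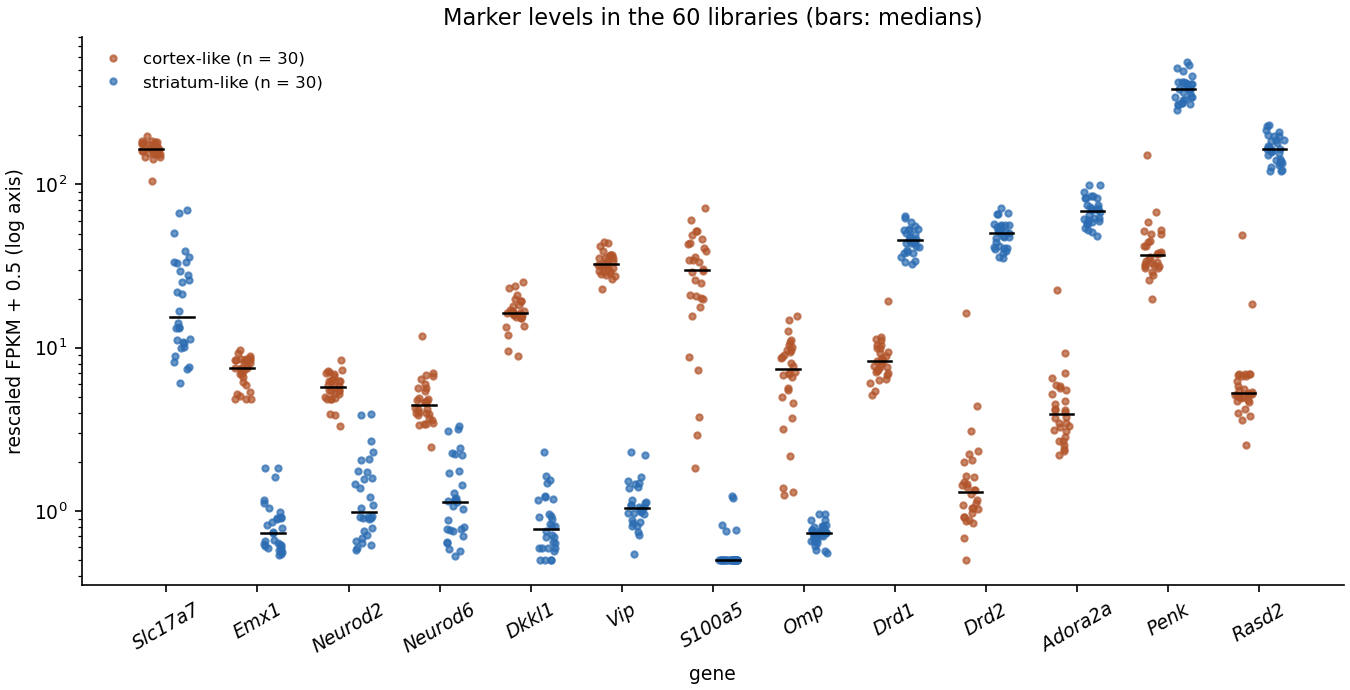
Levels of 13 genes (rescaled FPKM + 0.5, log axis) in each cortex-like (n = 30) and striatum-like (n = 30) library; points are libraries and bars medians. Neurod2 and Neurod6 overlap between the groups, while Emx1, Dkkl1, Vip, S100a5, Omp, Drd1, Drd2, Adora2a, Penk and Rasd2 do not.

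The label was borne out only in part on the cortical side. Of 25 listed transcription factors of cortical neurons, 23 had a mean of at least 0.5, 5 were separated and higher in the cortex-like libraries and 2 separated and lower, with a list median of 0.55 against -0.06 over all genes. Emx1, which patterns the cortical progenitor zone, was 4.33 to 9.14 (median 7.02) against 0.0351 to 1.34 (median 0.237), a difference of 3.16. Bhlhe22 was 2.28 to 7.41 against 0.102 to 1.65, a difference of 2.40. The other members separated in that direction were Lmo4, Id2 and Mef2c, by 1.35, 1.05 and 1.03. Cux1, a factor of upper-layer neurons, went the other way, at 2.46 to 8.84 against 20.0 to 26.9, and so did Etv1, by -1.08. Tbr1 (1.39) and Fezf2 (1.32), which specify projection neuron classes, differed by more than 1 on the log2 scale with overlapping ranges, and Nr2f1 was flat at 0.07.

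Markers of cortical layers were split. Of 19 with a mean of at least 0.5, 3 were separated and higher in the cortex-like libraries: Ctgf (2.72) and Cplx3 (1.85), found in deep subplate-derived cells, and Rasgrf2 (1.77). Separated in the other direction were 5, namely Whrn, Syt6, Pou3f1, Calb1 and Fam84b. Calb1, a calcium buffer of upper-layer and also of spiny neurons, was 7.82 to 20.4 against 28.5 to 59.7. Crym was alike in both, at 21.1 to 48.1 and 20.0 to 51.2.

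Effector genes of excitatory neurons were the cortical list with the most separated members, 12 of 23 higher in the cortex-like libraries and 4 lower, with a list median of 1.60. Dkkl1 was 8.34 to 24.6 (median 15.9) against 0 to 1.79 (median 0.279), a difference of 4.31. The neuropeptide gene Cck was 160 to 343 (median 253) against 6.37 to 58.3 (median 21.6), a difference of 3.62. Nov, which encodes a secreted matricellular protein, and Nrn1, which encodes the neurite growth protein neuritin, differed by 3.58 and 3.10. Bdnf, the activity-regulated neurotrophin that the cortex supplies to the striatum, was 2.01 to 6.83 against 0 to 1.39. Members that went the other way were Egr3 (1.22 to 10.0 against 18.6 to 41.1), Hpca (129 to 270 against 315 to 711), Nrgn (65.1 to 149 against 161 to 367) and Baiap2, and Camk2a, abundant in both tissues, was 61.2 to 161 against 131 to 248.

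Genes of spiny projection neurons that were separated lay, except for Synpr, in 1 direction. All 6 indirect-pathway genes with a mean of at least 0.5 were separated and higher in the striatum-like libraries, of 8 listed. Penk, the enkephalin precursor, was 19.5 to 150 (median 36.3) against 283 to 563 (median 384), a difference of -3.29, and Gpr6 and Oprd1, a receptor for enkephalins, differed by -2.47 and -2.01. Of the 9 direct-pathway genes, 6 were separated in the same direction. Drd1 was 4.61 to 18.9 (median 7.76) against 32.2 to 63.9 (median 45.0), a difference of -2.44. Pdyn, the dynorphin precursor, was 4.83 to 22.6 against 25.1 to 48.7, and Tac1, the substance P precursor, 17.8 to 38.8 against 53.4 to 106. Indirect-pathway members thus had a list median of -2.88 and direct-pathway members -1.90, and this contrast between lists was not tested.

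Dopamine and cyclic AMP signaling held 18 separated members of the 25 that passed the level filter, all higher in the striatum-like libraries, with a list median of -2.76. The small GTPase gene Rasd2 was 2.02 to 48.4 (median 4.76) against 120 to 229 (median 163), a difference of -4.80. Adcy5, the main striatal adenylyl cyclase, differed by -4.64 and Pde10a, the phosphodiesterase that breaks down cyclic nucleotides in these cells, by -4.57. Gng7 and Gnal, subunits of the G protein that couples dopamine receptors to Adcy5, differed by -4.10 and -3.14, and Ppp1r1b was 36.7 to 206 against 345 to 729. The other adenylyl cyclases differed far less: Adcy1 (-1.08) and Adcy3 (-1.05) were separated, Adcy2 was higher in the cortex-like libraries by 0.87 with no overlap, and Adcy8 overlapped at 0.30. Of other spiny neuron genes, 15 of 24 were separated and higher in the striatum-like libraries, led by Syndig1l (-4.75) and the sodium channel subunit gene Scn4b (-4.47). The exception was Synpr, a synaptic vesicle gene, at 191 to 514 (median 326) in the cortex-like and 26.8 to 48.1 (median 38.7) in the striatum-like libraries.

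Striatal transcription factors were separated and higher in the striatum-like libraries for 12 of 20, with none the other way and a list median of -2.07. Six3 was 0.210 to 4.22 against 9.85 to 16.4, Bcl11b (Ctip2), needed for spiny neuron maturation, 4.54 to 27.0 against 42.3 to 101, and Dlx6 0.247 to 4.46 against 7.59 to 22.9. The retinoid receptors Rxrg (-3.03), Rarb (-2.97), Rarg (-2.07) and Rxra (-2.05) were the 4 separated members of 15 retinoid pathway genes. Meis2 was high in both, at 34.5 to 122 against 84.4 to 179, Dlx1 was 0.578 to 4.10 against 1.31 to 4.35, and Sp8 was higher in the cortex-like libraries by 0.87 with overlap.

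**Figure D3:**
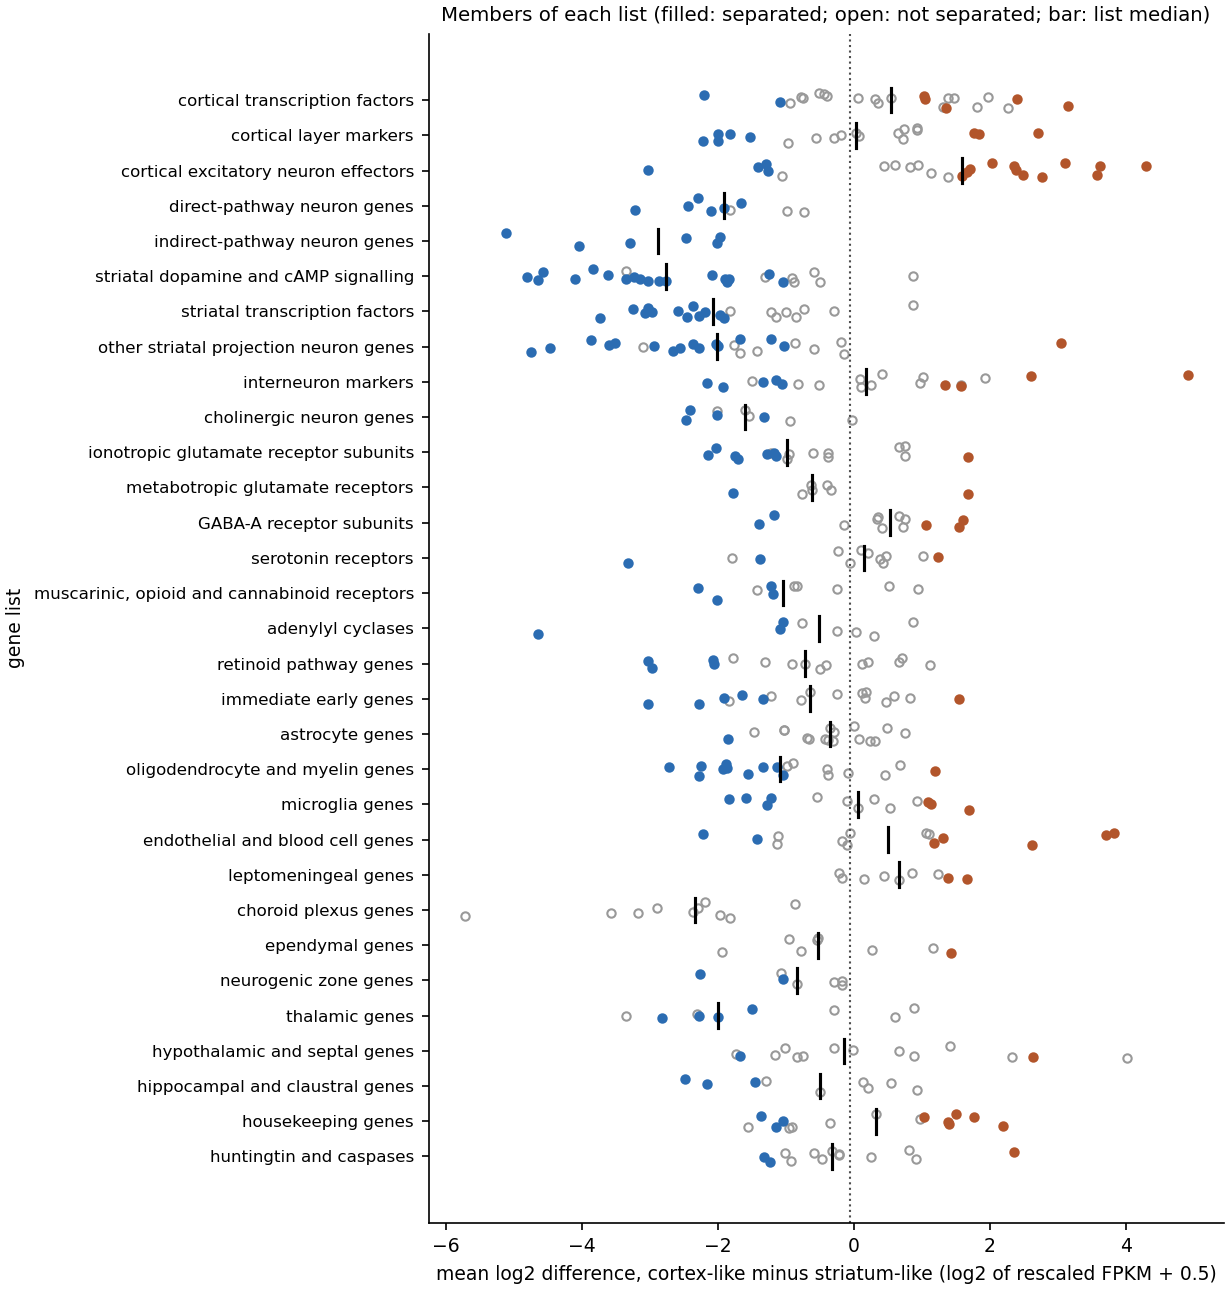
Mean log2 difference, cortex-like minus striatum-like, for each member of the 31 lists with a mean of at least 0.5 rescaled FPKM; filled points are separated, open points are not, black bars are list medians and the dotted line is the median of all genes, -0.06. Spiny neuron lists lie to the left (indirect-pathway median -2.88), excitatory effectors to the right (1.60), and several glial, interneuron and receptor lists lie on both sides.

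Interneuron markers were divided by kind. Of 20 genes, 4 were separated and higher in the cortex-like libraries and 5 higher in the striatum-like libraries. Vip, the peptide of a class of cortical interneurons that act on other interneurons, was 22.5 to 43.6 (median 31.9) against 0.0473 to 1.80 (median 0.546), a difference of 4.91. Cort, Pvalb and Sst differed by 2.61, 1.58 and 1.34 in the same direction, of which Sst turned to -0.02 with quantile normalization. The genes of GABA synthesis and transport, which spiny neurons also use, went the other way, among them Slc32a1 (-2.16), Gad2 (-1.93) and Gad1 (-1.05), as did Reln (-1.33). Cholinergic genes, which mark the large striatal interneurons, were separated for 4 of 9, all higher in the striatum-like libraries. Among them Chat, the acetylcholine-synthesizing enzyme, was 0 to 2.09 against 3.39 to 6.21, and Slc18a3, Slc5a7 and Slc17a8 differed by -2.41, -2.01 and -1.32.

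Receptor subunits of the same family fell on both sides, though not under every processing. Of 17 ionotropic glutamate receptor subunits 7 were separated and higher in the striatum-like libraries, led by Grik3 (-2.14), Grin2c (-2.03) and Grid1 (-1.74), and 1, Grik1, was higher in the cortex-like libraries, by 1.68. This balance depended on the processing. With the length and GC correction described below, 4 were separated in each direction. With FPKM as deposited 3 were higher in the cortex-like and 4 in the striatum-like libraries. With quantile normalization these were 1 and 11. Of the metabotropic receptors, the presynaptic Grm2 was separated and higher in the cortex-like libraries (2.00 to 7.10 against 0.242 to 1.61). Of 12 GABA-A receptor subunits, Gabra5 (1.60), Gabrg1 (1.54) and Gabra3 (1.06) were separated and higher in the cortex-like and Gabrb1 (-1.40) and Gabrg3 (-1.17) in the striatum-like libraries. The striatum-like side was lost with some of the other processing: 5 were higher in the cortex-like and 0 in the striatum-like libraries with FPKM as deposited. With the length and GC correction these were 4 and 0, and with quantile normalization 2 and 2. The serotonin receptor genes Htr1b, at 0.712 to 5.86 against 11.9 to 31.0, and Htr6 (-1.39) were higher in the striatum-like and Htr5b (1.23) in the cortex-like libraries, and Htr2c was flat at 0.10. The receptors Chrm4 (-2.29), Oprd1 (-2.01), Cnr1 (-1.21) and Oprk1 (-1.19) were the 4 separated members of 10 muscarinic, opioid and cannabinoid receptors.

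Of 17 immediate early genes, 5 were separated and higher in the striatum-like libraries: Egr3 (-3.03), Egr4 (-2.27), Egr1 (-1.91), Fosl2 (-1.65) and Fosb (-1.33). Egr1 was 6.49 to 17.6 against 23.6 to 62.0. Ier2 was higher in the cortex-like libraries by 1.55, and Fos was 2.13 to 8.64 against 2.04 to 13.5. The balance depended on the processing: with FPKM as deposited 2 were separated in each direction. With the length and GC correction described below, 2 were higher in the cortex-like and 3 in the striatum-like libraries. With quantile normalization these were 1 and 3.

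Markers of other cell types and regions moved with the groups, and their part in the differences above was not tested. A list of 12 olfactory bulb genes was put together after S100a5 and Doc2g appeared among the most different genes, so it is no independent evidence. By their summed level it was 42.2 to 251 (median 140) in the cortex-like and 26.2 to 48.8 (median 36.5) in the striatum-like libraries. S100a5 was 1.35 to 71.1 (median 29.6) against 0 to 0.730 (median 0), a difference of 5.40, and Doc2g was 3.92 to 65.9 (median 32.9) against 0.0733 to 1.07 (median 0.350), a difference of 5.02. Omp, a protein of mature olfactory sensory neurons, was 0.756 to 15.1 (median 6.93) against 0.0555 to 0.465 (median 0.238). Cdhr1, Nmb and the peptide gene Trh completed the 6 entries separated and higher in the cortex-like libraries, 1 entry of Reln was separated the other way, and Th, the dopamine-synthesizing enzyme, was 0.492 to 10.6 against 0.995 to 3.89. The lowest S100a5 and Omp of the cortex-like group, 1.35 and 0.756, were in the library nearest the threshold.

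The choroid plexus genes moved the opposite way but less evenly. All 10 were lower in the mean of the cortex-like libraries and none was separated. Ttr, the transthyretin that choroid plexus secretes, was 1.34 to 364 (median 6.47) against 29.6 to 2025 (median 938), and the 10 genes summed to 36.2 to 488 against 86.3 to 2598. Thalamic genes were separated for 4 of 9 (Plekhg1, Amotl1, Lef1 and Rora), all higher in the striatum-like libraries, and summed to 14.2 to 29.4 against 26.2 to 182. The hypothalamic peptide gene Avp was 0.445 to 188 against 0 to 53.3, with overlap. Of hippocampal and claustral genes Prox1, Wfs1 and Zbtb20 were separated, by -2.49, -2.16 and -1.46. Of 14 septal and hypothalamic genes, Trh was separated at 2.64 and Nkx2-1 at -1.67, of neurogenic zone genes Sox11 (-2.25) and Nes (-1.04), and of 8 ependymal genes Rarres2, at 1.43, although 5 of the 8 were lower in the cortex-like libraries and the list median was -0.53, while the 2 separated leptomeningeal genes were Slc6a13 (1.67) and Ptgds (1.39), the latter at -0.89 with quantile normalization.

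Glial and vascular lists were mixed. Oligodendrocyte genes were separated and higher in the striatum-like libraries for 10 of 18, among them Sox10 (0.901 to 4.93 against 10.4 to 17.0), Olig2 (-2.28), Olig1 (-2.25) and Mobp (41.7 to 133 against 195 to 347), while Aspa was higher in the cortex-like libraries by 1.19. Microglial genes were divided within the list: Cx3cr1 (-1.83), Ctss (-1.59), Itgam (-1.27) and Csf1r (-1.22) were higher in the striatum-like, and the complement genes C1qa (1.09) and C1qb (1.13) and the lipid receptor gene Trem2 (1.69) in the cortex-like libraries. With the length and GC correction described below, Itgam, Csf1r, C1qa and C1qb were no longer separated. Of the 13 microglial genes, 1 was then separated and higher in the cortex-like and 3 in the striatum-like libraries. These counts were also 1 and 3 with quantile normalization, and 3 and 2 with FPKM as deposited. P2ry12 and Tmem119, which mark homeostatic microglia, were flat at 0.06 and -0.10. The hemoglobin genes Hbb-bt and Hbb-bs were higher in the cortex-like libraries, Hbb-bs at 427 to 1520 against 45.2 to 89.0, whereas the endothelial genes Flt1 (-2.22) and Cdh5 (-1.42) were lower and Itm2a (2.62), Bsg (1.31) and Cldn5 (1.18) higher. Bsg turned to -0.63 with quantile normalization. Astrocyte genes had 1 separated member of 17, Slc4a4 (-1.85), and Aldoc was 136 to 281 against 153 to 222.

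Genes with roles in every cell were also divided. Of 15 housekeeping genes 6 were separated and higher in the cortex-like libraries (among them Rplp0 2.19, Ppia 1.77, Tfrc 1.51, Pgk1 1.41 and Hprt 1.38) and 3 lower (Ywhaz -1.37, Polr2a -1.14 and Actb -1.04). Actb was 164 to 488 against 512 to 846. Gapdh overlapped at -0.36 and Tbp at 0.33.

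Whole classes of transcripts, looked at after these values were seen, followed the same division. Of 99 nuclear genes named for subunits of the respiratory complexes 55 were separated and higher in the cortex-like libraries and none lower, whereas of the 13 mRNAs of the mitochondrial genome 9 were separated and higher in the striatum-like libraries and none lower. The opposite directions concern subunits of the same complexes: Ndufb9 was 322 to 881 (median 551) against 79.9 to 98.2 (median 88.9), and mt-Nd4 was 6.31 to 67.9 (median 21.0) against 280 to 910 (median 432). Higher in the cortex-like libraries were 47 of 77 mitochondrial ribosomal protein genes, 37 of 91 cytosolic ribosomal protein genes, 19 of 43 proteasome genes and 29 of 62 replication-dependent histone genes, with 1 gene lower among the ribosomal proteins and none in the others. In that order, the length and GC correction described below gave 34, 30, 16 and 22 higher, and 1, 2, 0 and 1 lower. Over all genes it gave 2130 of 15985 higher. Quantile normalization gave 44, 23, 15 and 15 higher, and FPKM as deposited 52, 45, 27 and 33. The median longest transcripts were 1849, 1128, 1883 and 555.5 bases. Of all protein-coding genes up to 2011 bases, 34.1% were separated and higher in the cortex-like libraries. Rpl13a was 512 to 1369 against 59.6 to 82.8. Cytosolic ribosomal protein genes have many near-identical pseudogenes that can share their reads, and Rps12 was listed at 0 to 1.37 against 0 to 0.297, so these levels are uncertain. Of 55 clustered protocadherin genes 19 were higher in the striatum-like libraries and none lower, but with the length and GC correction described below 6 were higher and 1 lower, against 1724 of 15985 genes higher there over all. With FPKM as deposited 9 were higher and 1 lower. Further, of 483 transcripts of the annotation's TEC class, which await experimental support, 210 were higher in the striatum-like libraries and 2 lower.

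**Figure D4:**
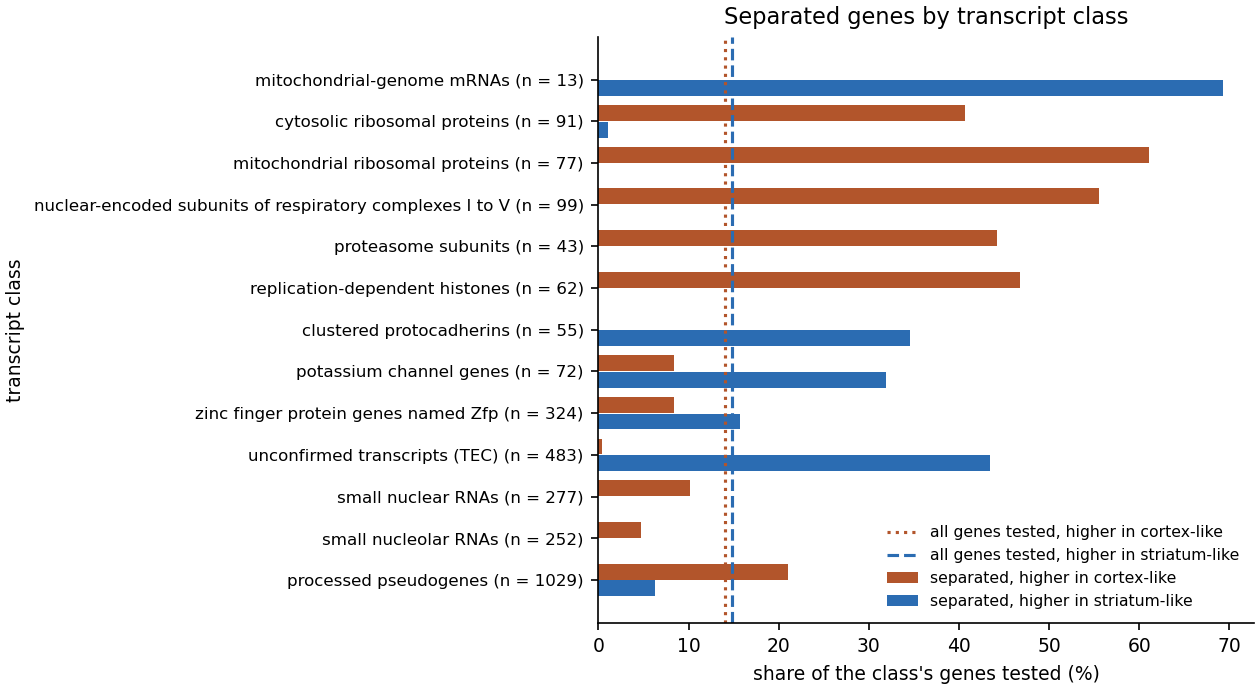
Share of the genes tested in each transcript class that were separated, higher in the cortex-like (orange) or striatum-like (blue) libraries; the dotted and dashed lines give the shares over all genes, 14.0% and 14.8%. Nuclear respiratory subunits and mitochondrial ribosomal proteins stand to one side and mitochondrial-genome mRNAs and TEC transcripts to the other. None of the shares is corrected for transcript length.

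The largest differences toward the cortex-like libraries were in short RNAs, and many of these calls depended on the scaling: with quantile normalization the separated small nuclear RNAs went from 28 to 0 and the small nucleolar RNAs from 12 to 6, and Rnu1b6, Snora23 and Gm25890 were among those no longer separated. The 12 genes with the largest differences in favour of the cortex-like libraries were small nuclear and nucleolar RNAs and related entries, among them Rnu3b1 to Rnu3b4 (median 785 against 0.0613), Snora23 and Snora74a, and Rnu1b6. The 4 Rnu3b entries carry near-identical values, as do Gm25890 and Gm22614, so reads shared among copies leave their levels uncertain. In the other direction Drd2, Gm15725, Gm10222, mt-Nd4l, Gm12079, Rasd2, Syndig1l, Adcy5, Pde10a, mt-Nd4, Scn4b and Gng7 led, and Gm10222 and mt-Nd4l had almost the same values. Among protein-coding genes with names, those with the largest such differences after S100a5, Doc2g and Vip were Tmem40 (4.85), Ccl27a (4.71), Myl4 (4.39), Gas2 (4.39), Pde5a (4.34), 1110008P14Rik (4.33), Dkkl1, Gng13 (4.19) and Tmem256 (4.13), a ranking added after the values were seen.

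Transcript length moved with the difference. The median longest transcript was 1846 bases for genes separated and higher in the cortex-like libraries, 4493 bases for those higher in the striatum-like libraries and 3052 bases over all genes. Ordered by length, 13006 protein-coding genes were cut into 5 bins of about equal size. The shortest bin (up to 2011 bases) had a median difference of 0.80 with 34.1% separated and higher in the cortex-like and 3.77% in the striatum-like libraries, and the longest bin (from 5441 bases) had -0.70, with 4.73% and 30.9%. GC content moved less, from 0.13 in the lowest to -0.30 in the highest of 5 bins. When each library was centered within bins of transcript length and of GC content, a correction added after the values were seen, 2130 genes were separated and higher in the cortex-like and 1724 in the striatum-like libraries, and the shared genes were 77.8% and 56.1% of the uncorrected sets. Neurod2 (2.74) became separated. Vip (4.76), Emx1 (3.01), S100a5 (4.94) and Drd2 (-5.05) were also separated with it, and 17 dopamine and cyclic AMP genes were separated and higher in the striatum-like libraries. Of the nuclear respiratory subunits 36 were higher in the cortex-like libraries and 2 lower. Sst (0.75), C1qa (0.65) and Ptgds (0.79) were no longer separated.

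**Figure D5:**
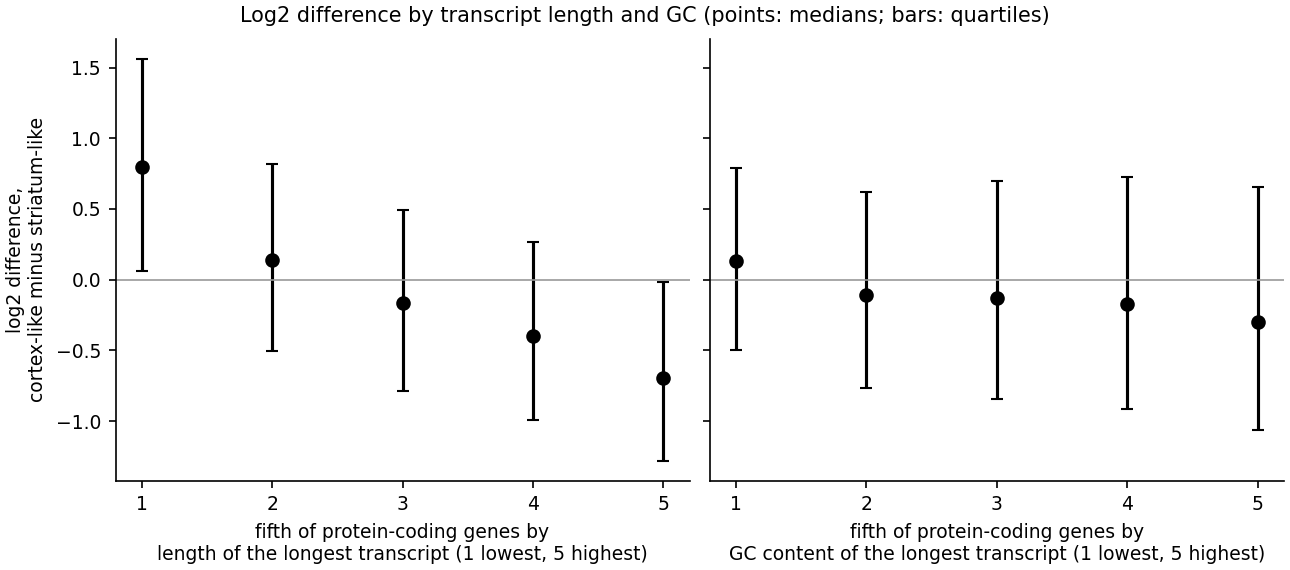
Log2 difference, cortex-like minus striatum-like, over 5 bins of 13006 protein-coding genes ordered by the length (left) or GC content (right) of their longest transcript; points are medians and bars quartiles over genes. The median runs from 0.80 in the shortest to -0.70 in the longest bin.

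Htt itself was 4.81 to 11.2 (median 9.02) in the cortex-like and 12.7 to 20.7 (median 17.5) in the striatum-like libraries, without overlap. The mean difference of -0.92 lay under the 2-fold limit and became -0.14 with the length and GC correction. Within the striatum-like libraries Htt was 16.6 to 20.7 in KO-line +/+ (median 17.5), 12.7 to 20.0 in KO/+ (median 17.0) and 15.9 to 18.7 in Δ12/Δ12 (median 17.7). Within the cortex-like libraries it was 4.81 to 11.2 in Δ12-line +/+ (median 9.81), 6.66 to 11.0 in Δ12/+ (median 8.42) and 7.64 to 10.1 in Δ12/Δ12 (median 8.08). The genotypes overlapped in each group, so the edited gene did not check the genotype labels. Of 13 listed genes, Htt with its partners and the caspases, 2 were separated and higher in the striatum-like libraries, near the background share: Hip1 (-1.33) and the BDNF receptor gene Ntrk2 (-1.23). Bdnf (2.36) was separated the other way. Neither Hip1 nor Ntrk2 was separated with FPKM as deposited or with the length and GC correction.

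The labelled tissue was tested within each group with limma, adjusted for labelled genotype and sex. The rule did not use this label, but it cut on a transcript of cortical neurons, which narrows tissue differences within each group whatever the labels. The test therefore cannot decide how far the labelled tissues differ. Within the cortex-like libraries, 15 labelled cortex against 15 labelled striatum, no gene of 15231 (0%) passed an adjusted p of 0.05, and 980 had an unadjusted p under 0.05. Within the striatum-like libraries no gene of 15958 passed (0%), and 561 had an unadjusted p under 0.05. Drd2 averaged 49.7 ± 9.43 (SD, n = 15) in the striatum-like libraries labelled cortex and 49.8 ± 10.2 (SD, n = 15) in those labelled striatum, a log2 difference of -0.00025 (SE 0.0927, adjusted p = 1.00, limma). Neurod6 in the cortex-like libraries averaged 4.94 ± 2.23 (SD, n = 15) in those labelled cortex and 3.79 ± 0.772 (SD, n = 15) in those labelled striatum, a difference of 0.27 (SE 0.153, adjusted p = 0.798, limma). A p above the threshold does not show that the labelled tissues were alike.

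The members of a group were not uniform. Over genes with a group mean of at least 5, the median SD of log2 levels was 0.261 among cortex-like and 0.153 among striatum-like libraries, and 12.1% of the 16075 genes varied more in the striatum-like group. The most variable gene of the cortex-like group was mt-Tm, a mitochondrial tRNA gene listed at 0 to 1502720. The library striatum Δ12-line Δ12/+ male 3 was the one nearest the other group for 59.7% of the genes separated and higher in the striatum-like libraries and for 19.8% of those higher in the cortex-like libraries. It held 15.9 of Drd2, 48.4 of Rasd2, 150 of Penk and 364 of Ttr, each the highest of the cortex-like group, and 22.5 of Vip, the lowest. The KO/+ libraries labelled cortex male 3 and female 1 held 47.4 and 38.9 of Drd2, within the range of their group. Without these 3 libraries 2297 genes were separated and higher in the cortex-like and 2468 in the striatum-like libraries.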

How the data were processed

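RNA of 60 labelled cortex or striatum samples was depleted of ribosomal RNA and made into directional libraries. The submitters' processing notes name bcl2fastq 2.20, Trimmomatic 0.30, TopHat2 2.0.14, SAMtools 1.3, HTSeq 0.6.1p1 and GRCm38.p4. The deposited values are FPKM with interval limits, made by the authors, and no read counts were analysed here. Of 47597 entries, 23 were left out because at least 1 library did not mark them OK. FPKM were rescaled by median-of-ratios factors and log2(value + 0.5) was taken, with a mean of at least 0.5 required (Python 3.11.15, pandas 2.3.3, numpy 2.4.6).

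Libraries were divided at 100 FPKM of Slc17a7, which was then left out, and no test was run between the resulting groups. Within each group, labelled cortex and labelled striatum were compared with limma 3.58.1 (R 4.3.3), with line and genotype and sex as covariates and Benjamini-Hochberg adjustment, after the code was tested on simulated data. Whether samples are separate animals beyond the labels is not known, so p-values measure the spread between these samples. Same-numbered cortex and striatum samples did not deviate together (correlations -0.158 to 0.104 and -0.130 to 0.135 over 15 pairs in each group), so numbers were not taken as pairs.

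The members and the 31 gene lists were chosen with earlier results of these data known. Genes are named as the 5 markers, Htt, the 12 most different each way, up to 4 separated members of each list each way, and the 8 flattest members. The transcript classes, the olfactory bulb list, the ranking of protein-coding genes and other list members given for contrast were chosen after the values were seen. Alternatives covered scaling, pseudocount, filters, thresholds and left-out libraries. Some genes of the lists are not reported here by name, though the counts include them.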

Additional observations from a re-analysis of the deposited data

How the results depend on the processing

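The counts of separated genes, 4640 in all, stayed within 1.5 times under quantile normalization (4550), pseudocounts of 0.1 (4883) and 1 (4240), no level filter (4724), no minimum fold (5818), overlap allowed (6437), libraries of only labelled cortex or striatum with the level filter applied within them (5005 and 5421), the Δ12/Δ12 libraries alone (5842) and, chosen after seeing the data, entries of any status (4648) and the length and GC correction (3854). With FPKM as deposited 1347 genes were higher in the striatum-like libraries, and with a mean of at least 5 required, 1355. Requiring a log2 difference of 2 left 1319 genes, 793 higher in the cortex-like and 526 in the striatum-like libraries. A Slc17a7 threshold of 50 FPKM left 56 genes (40 and 16) and one of 150 FPKM left 1930 (461 and 1469), since libraries then changed sides. Leaving out each library in turn gave 4629 to 4805 genes, 2248 to 2342 higher in the cortex-like and 2379 to 2469 in the striatum-like libraries. A gene without overlap over all libraries stays without overlap in any subset. The counts with libraries left out, or of a single label or genotype, are therefore no test of stability. Quantile normalization reversed Sst (-0.018), Bsg (-0.63) and Ptgds (-0.89), and the cause was not tested. Sizes were less stable than directions: of 174 named differences, 76 moved by more than the spread between libraries with FPKM as deposited, 55 with quantile normalization and 45 with a pseudocount of 0.1, and 88 of 170 with the length and GC correction. The sign of the list median turned with scaling for astrocyte genes (-0.36, 0.01 as deposited), microglia (0.06, -0.01 quantile), endothelial and blood genes (0.51, -0.05 quantile) and hypothalamic and septal genes (-0.15, 0.10 as deposited). With the replicate block, limma called 0 genes between labelled tissues in either group, with 900 and 589 at an unadjusted p under 0.05, and 0 were called under every other setting run or without any 1 library. FPKM without counts limit what can be said of low genes.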
